A study of Mus musculus with 55 samples.

Results

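Hepatocyte identity in the liver is held by a small network of transcription factors, and 9 of its genes were followed here across 10 sorted mouse liver populations. The genes were Hnf4a, Cebpa, Cebpb, Foxa1, Foxa2, Foxa3, Prox1, Onecut1 and Nr5a2, taken by symbol from a table of 24478 symbols. A symbol with several transcript rows was represented by the row whose mean across the 55 libraries was highest. All 9 symbols were in the table. Levels are FPKM, fragments scaled to transcript length and library size, so they can be compared between genes.

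The libraries were RNA sequencing libraries of C57B/L6 mouse liver, 27 of them from normal liver. The other 28 followed partial hepatectomy (PH), the removal of part of the liver, after which the remnant regrows. Normal liver gave 4 libraries each of hepatocytes (HC), clonal biliary epithelial cells (cBEC) and biliary epithelial cells (BEC). It gave 2 of ducts labelled as non progenitor (NPD), 2 of endothelial cells (EC), 3 of liver sinusoidal endothelial cells (LSEC), 2 of Kupffer cells (KC), 2 of hepatic stellate cells (HSC), 2 of Thy1 cells and 2 of blood cells. After PH there were 4 HC, 2 cBEC, 2 BEC, 2 NPD, 3 EC, 5 LSEC, 3 KC, 3 HSC, 2 Thy1 and 2 blood libraries. The labels give no age, no sex and no time after surgery, and name no genetic change. Nothing in them says which libraries came from separate mice or pools, so the tests measure the spread between libraries. The library titled PH cBEC replicate 1 carries the treatment tag of normal liver and was kept as titled.

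HNF4A is an orphan nuclear receptor and the central activator of genes for serum proteins, clotting factors and lipid transport. The C/EBP proteins are basic leucine zipper factors: C/EBP alpha drives metabolic genes and restrains division of hepatocytes, and C/EBP beta responds to cytokines and to loss of liver mass. The FOXA proteins are winged helix factors that open closed chromatin in the early liver. PROX1 is a homeobox factor needed for hepatoblasts to migrate, HNF6, the product of Onecut1, acts in hepatocytes and in bile duct formation, and NR5A2 (LRH-1) controls bile acid and cholesterol genes.

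The members' places in the table, in mm9 coordinates, were chr2:163332592-163398643 (+) for Hnf4a, chr7:35904311-35906947 (+) for Cebpa and chr2:167514414-167515932 (+) for Cebpb. Foxa1 was at chr12:58641618-58647108 (-), Foxa2 at chr2:147868612-147872705 (-) and Foxa3 at chr7:19598631-19608888 (-). Prox1 was at chr1:191945657-191994559 (-), Onecut1 at chr9:74709727-74737454 (+) and Nr5a2 at chr1:138740160-138850207 (-). Each region is the whole gene body of the row used.

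Members of such a network are known to bind at one another's promoters. Promoter sequences were therefore searched for the core letters that these factors recognise, in the 250 bases before each RefSeq start (build GRCm38.p6, which differs from the mm9 coordinates of the expression table). The 9 genes have 14 such windows. The letters searched, on both strands, were TGTTTAC for FOXA, CAAAGTCCA for HNF4A, TTGCNNAA for C/EBP, ATTGATT for HNF6 and CAAGGTCA for NR5A2, and the core of the HNF1 motif was searched too. Of 32851 promoter windows of the same length, 3.17% held the FOXA letters, 0.384% those of HNF4A and 9.56% those of C/EBP. The HNF6 letters were in 2.61%, those of HNF1 in 0.371% and those of NR5A2 in 1.33%. By motif, 2 of the 14 windows held the HNF6 letters, 1 each those of FOXA, C/EBP and HNF1, and 0 those of HNF4A and NR5A2. The share of all windows with any of the 6 motifs was not computed, so no excess is read from these counts. Matches fell in 5 of the members' windows. These are shown with the matched letters in capitals, together with the second Hnf4a start, whose row differed in ratio between hepatocytes and ducts, and with Cebpa, the member that fell in hepatocytes after PH. Each is printed 5′ to 3′ on the strand of its gene.
Hnf4a, upstream start, chr2:163506607-163506856 (+): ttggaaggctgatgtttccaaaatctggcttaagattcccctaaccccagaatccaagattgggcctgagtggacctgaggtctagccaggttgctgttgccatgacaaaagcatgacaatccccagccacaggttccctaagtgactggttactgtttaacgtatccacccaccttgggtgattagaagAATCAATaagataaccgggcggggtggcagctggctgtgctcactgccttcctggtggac
Hnf4a, downstream start, chr2:163546905-163547154 (+): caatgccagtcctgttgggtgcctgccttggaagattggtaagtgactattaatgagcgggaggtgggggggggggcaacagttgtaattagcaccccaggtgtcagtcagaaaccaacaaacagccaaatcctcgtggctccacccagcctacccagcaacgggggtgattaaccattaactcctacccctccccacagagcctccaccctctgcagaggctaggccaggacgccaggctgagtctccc
Cebpa, chr7:35119043-35119292 (+): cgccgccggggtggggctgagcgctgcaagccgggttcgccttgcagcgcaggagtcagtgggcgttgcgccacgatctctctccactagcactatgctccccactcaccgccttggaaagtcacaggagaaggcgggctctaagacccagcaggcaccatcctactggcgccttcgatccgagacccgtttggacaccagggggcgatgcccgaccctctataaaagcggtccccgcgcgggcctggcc
Foxa1, chr12:57546112-57546361 (-): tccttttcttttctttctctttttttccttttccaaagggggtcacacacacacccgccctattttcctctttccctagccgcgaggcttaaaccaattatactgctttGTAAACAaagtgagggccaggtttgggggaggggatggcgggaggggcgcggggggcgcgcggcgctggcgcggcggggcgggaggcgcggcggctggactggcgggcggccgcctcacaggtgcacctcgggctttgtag
Foxa2, chr2:148046970-148047219 (-): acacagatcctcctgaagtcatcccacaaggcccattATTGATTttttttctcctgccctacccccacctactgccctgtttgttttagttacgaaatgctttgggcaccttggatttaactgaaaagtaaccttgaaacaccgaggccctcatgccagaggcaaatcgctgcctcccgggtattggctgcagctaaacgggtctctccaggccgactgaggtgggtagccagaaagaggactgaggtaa
Nr5a2, upstream start, chr1:136960449-136960698 (-): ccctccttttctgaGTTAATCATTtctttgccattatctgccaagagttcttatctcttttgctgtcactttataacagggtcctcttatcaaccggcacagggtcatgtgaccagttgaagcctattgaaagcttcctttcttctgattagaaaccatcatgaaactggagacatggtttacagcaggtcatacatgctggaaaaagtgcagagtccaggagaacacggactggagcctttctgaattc
Nr5a2, downstream start, chr1:136953631-136953880 (-): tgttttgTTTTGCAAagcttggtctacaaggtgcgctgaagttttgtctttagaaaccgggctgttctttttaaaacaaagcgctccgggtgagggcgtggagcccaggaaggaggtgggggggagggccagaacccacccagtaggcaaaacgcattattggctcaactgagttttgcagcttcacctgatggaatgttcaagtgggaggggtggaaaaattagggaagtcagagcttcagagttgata

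In the upstream Hnf4a window the HNF6 letters lay on the opposite strand, 60 to 54 bases before the start, and in the Foxa2 window on the same strand, 213 to 207 bases before it. The FOXA letters in the Foxa1 window lay 141 to 135 bases before the start, on the opposite strand. Nr5a2 held the HNF1 letters 236 to 227 bases before its upstream start and the C/EBP letters 243 to 236 bases before its downstream start. The Cebpa window and the downstream Hnf4a window held no match to the 6 motifs. A match is a description of sequence, not a bound site.

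Across all libraries the summed FPKM ranged from 624726 to 1203197, and the read depth behind the values is unknown. The sums of the 8 HC columns ran from 960918 to 1203197, and the highest of the other 47 columns was 848630. Differences between HC and other populations as deposited cannot be told apart from this difference in scale, and values under other scalings are given below. Values in the 8 HC columns were all given to 2 decimals, against at most 52.0% of values in any of the other 47 columns. Transcripts abundant in hepatocytes were often listed at exactly 0 elsewhere: genes that reached 10 FPKM in 5 or more of the other 9 populations had 6.83% of their normal values at 0 where HC had 300 FPKM or more, and 0.199% where HC had under 30. For genes at 100 to 300 FPKM in HC, the range of Hnf4a and Cebpa, it was 1.77%. Albumin, the marker of hepatocytes, was at 67288 FPKM in normal HC. The 6 hepatocyte markers summed to 88958 to 94872 FPKM in normal HC. In the duct sorts of normal liver they were at 0 in every BEC and NPD library and reached 858 in 1 cBEC library. The 7 duct markers summed to 9506 to 19933 in cBEC, 14820 to 21743 in BEC, 2609 to 3816 in NPD and 26.2 to 65.0 in HC.

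In normal liver Hnf4a, Cebpa and Foxa3 were higher in HC than in the 3 duct sorts as a whole, while Foxa1, Foxa2, Prox1, Onecut1 and Nr5a2 were lower in HC. Cebpb did not pass the test. Thus 8 of 9 members passed, against 84.4% of the 14702 genes tested. Being lower in HC was the common case, with 70.4% of all genes, and the 5 of 9 members that were lower are no more than that. Being higher in HC was the case for 14% of genes and for 3 of the 9. The libraries of HC lay above all duct libraries for those 3 members, as for 9.25% of genes, and below all duct libraries for 0 of 9, against 51.8% of genes.

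Hnf4a was the member most restricted to hepatocytes by level. It measured 193, 159.7, 161 and 178 FPKM in the 4 normal HC libraries. The cBEC libraries gave 14.3, 11.1, 9.24 and 6.23, the BEC libraries 11.8, 8.19, 9.97 and 8.21, and both NPD libraries were listed at 0. Every HC library lay above every duct library, and cBEC and BEC overlapped. The difference in mean log2(FPKM + 1) was 5.17 ± 0.17 (SE; limma, adjusted p = 1.89e-12), and with NPD at 0 its size depends on the pseudocount. In the BEC libraries all 6 hepatocyte markers were at 0. In cBEC the 1 library with hepatocyte markers, replicate 4, had the lowest Hnf4a of the 4. Transcripts abundant in hepatocytes were often listed at exactly 0 elsewhere, so these zeros do not show whether hepatocyte RNA was present. Its part in the duct values of Hnf4a was not tested.

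Cebpa stood at 301, 144, 149 and 298 FPKM in normal HC, the highest mean of the 9 members there. In cBEC it was 11.4, 17.1, 14.2 and 17.1, in BEC 35.1, 17.1, 29.6 and 17.0, and in NPD 2.46 and 0. HC libraries fell into a high and a low pair, and even the low pair lay above all ducts. The difference was 4.56 ± 0.32 on the log2(FPKM + 1) scale (SE; limma, adjusted p = 1.04e-08). Foxa3, the third FOXA paralogue, measured 29.5, 18.3, 20.3 and 31.8 in HC against 2.58 to 14.4 in cBEC, 7.05 to 13.3 in BEC and 2.68 and 0.108 in NPD. It did not overlap between HC and ducts, and was higher by 2.20 ± 0.36 (SE; limma, adjusted p = 6.02e-05).

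Cebpb, the paralogue of Cebpa, was not highest in HC. HC gave 35.9, 34.2, 58.8 and 50.8 FPKM, cBEC 56.8, 10.6, 4.80 and 8.23, BEC 15.6, 7.29, 6.11 and 4.5, and NPD 97.7 and 107. NPD was thus above HC and most cBEC and BEC libraries were below it. Against NPD alone the difference of -1.21 ± 0.69 did not pass (SE; limma, adjusted p = 0.131). HC lay below NPD without overlap, as was the case for 62.2% of genes. Against the 3 sorts as a whole the difference was 0.96 ± 0.48 (SE; limma, adjusted p = 0.0751). Against BEC alone Cebpb was higher in HC by 2.39 ± 0.56 (limma, adjusted p = 0.00131), and against cBEC alone by 1.70 ± 0.56 (adjusted p = 0.0119), with an overlap from cBEC replicate 1.

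**Figure D1:**
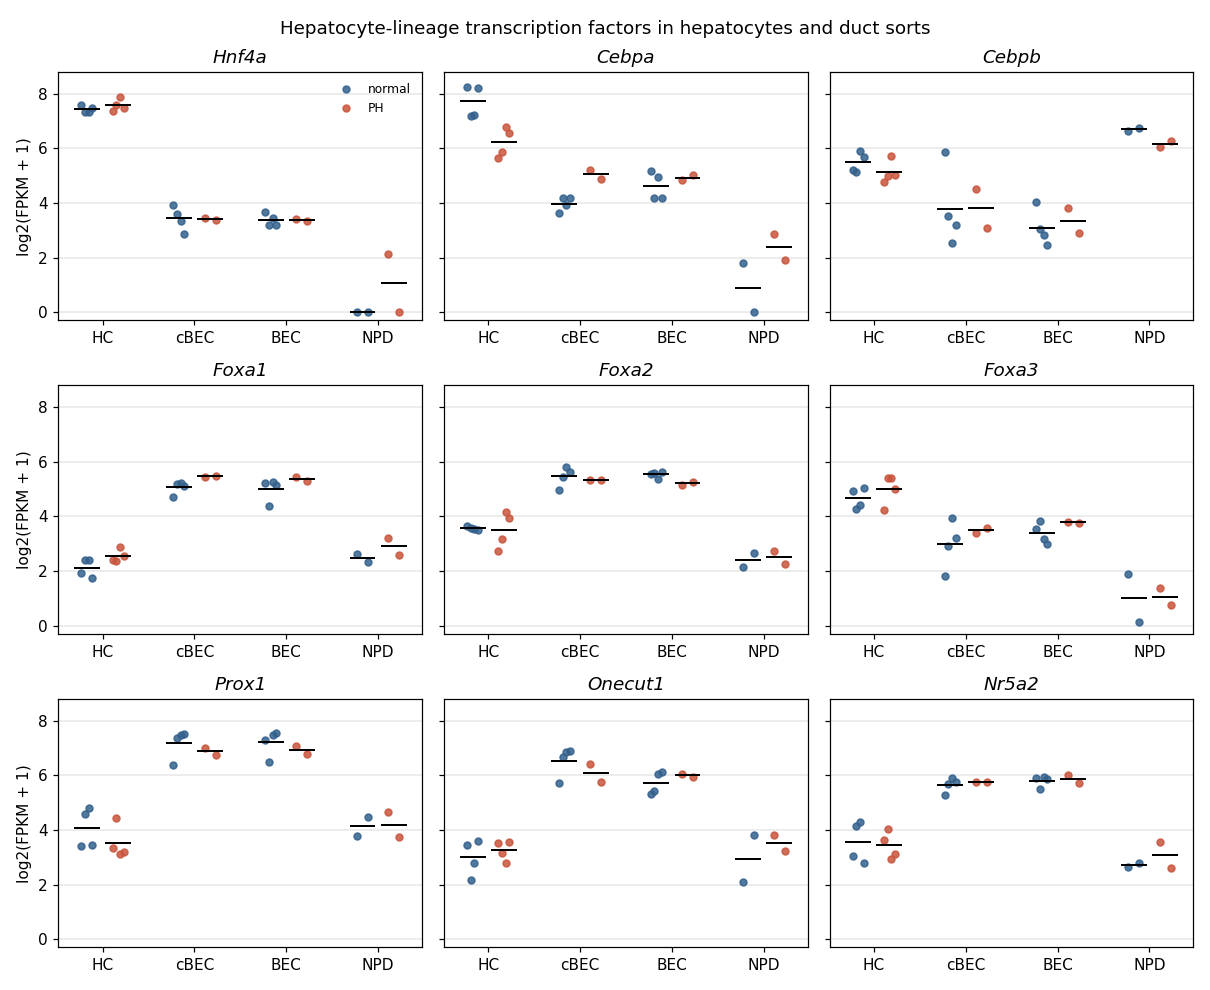
Level of each member as log2(FPKM + 1) in hepatocytes (HC) and the 3 duct sorts, 1 point per library, blue for normal liver and red after partial hepatectomy (PH), with a bar at the mean of the log2 values. Hnf4a, Cebpa and Foxa3 are highest in HC, whereas Foxa1, Foxa2, Prox1, Onecut1 and Nr5a2 are highest in cBEC and BEC, and NPD lies near or below HC for those 5.

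The other 5 factors were highest in cBEC and BEC. Prox1 was 9.60, 23.1, 27.1 and 9.82 FPKM in normal HC. It was 81.5, 164, 177 and 179.9 in cBEC, 157, 88.2, 179 and 185 in BEC, and 12.7 and 21.3 in NPD. The cBEC and BEC libraries all lay above HC, and the NPD libraries lay within the HC range. Onecut1 was at 9.98, 3.53, 5.97 and 11.03 in HC, 51.6, 101, 115 and 118 in cBEC, 39.1, 42.1, 64.6 and 68.2 in BEC, and 3.25 and 13.1 in NPD. Its cBEC and BEC libraries too all lay above HC, with 1 NPD library below and 1 above the HC range.

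Foxa1 was low in hepatocytes, at 2.79, 4.26, 4.36 and 2.35 FPKM, and measured 25.1 to 36.6 in cBEC, 19.9 to 37.7 in BEC, and 5.14 and 4.0 in NPD. Foxa2 was 11.7, 10.9, 10.7 and 10.3 in HC, the most even of the members there, with 30.4 to 55.8 in cBEC, 40.7 to 47.9 in BEC, and 3.44 and 5.36 in NPD. Nr5a2 was 7.24, 16.8, 18.8 and 5.85 in HC, 38.0 to 58.1 in cBEC, 44.0 to 61.1 in BEC, and 5.33 and 6.01 in NPD. For each of these genes HC lay below all cBEC and BEC libraries. NPD overlapped HC for Foxa1 and Nr5a2 and lay below HC for Foxa2.

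Because NPD stood apart from the other ducts, each sort was also compared with HC alone, a comparison added after the data were seen. Against cBEC alone and against BEC alone all 9 members passed, with 83.7% and 83.5% of genes called. Foxa1, Foxa2, Prox1, Onecut1 and Nr5a2 were then lower in HC with no overlap, as were 65.4% and 68.2% of genes. Against cBEC the differences were -3.53 ± 0.40 for Onecut1, -3.12 ± 0.37 for Prox1, -2.94 ± 0.22 for Foxa1, -2.09 ± 0.30 for Nr5a2 and -1.90 ± 0.18 for Foxa2 (SE; limma, adjusted p from 2.20e-08 to 1.53e-05). Against NPD alone 4 members passed, with 71.2% of genes called: Hnf4a, Cebpa and Foxa3 were higher in HC, and so was Foxa2, by 1.16 ± 0.22 (limma, adjusted p = 0.000275). Cebpb, at -1.21, did not pass against NPD. Foxa1, Prox1, Onecut1 and Nr5a2 did not pass against NPD as deposited either, at -0.35, -0.07, 0.06 and 0.84. After quantile normalization they were at 0.98, 0.73, 1.15 and 1.86 there (limma, adjusted p = 0.00456, 0.227, 0.0972 and 0.000117). Under that scaling Foxa1 and Nr5a2 thus passed as higher in HC.

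The scaling of the libraries bears on the direction of the weaker differences. The median difference of all genes between HC and the ducts was -1.13 as deposited, -0.19 after quantile normalization and -0.64 after upper-quartile scaling. Relative to it, Foxa2 at -0.90 lay above the median gene, and its direction against the pooled ducts turned after quantile normalization (0.03). Nr5a2 no longer passed against the pooled ducts under either scaling (adjusted p = 0.302 and 0.155), and Foxa2 did not pass after upper-quartile scaling (0.373). Against cBEC or BEC alone, the 5 stayed lower in HC after quantile normalization in normal liver. Foxa1, Prox1 and Onecut1 were lower by 1.66, 2.73 and 2.86 against cBEC under that scaling, with Nr5a2 at -1.24 and Foxa2 at -1.03. Hnf4a, Cebpa and Foxa3 were higher in HC, and passed, under both scalings.

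**Figure D2:**
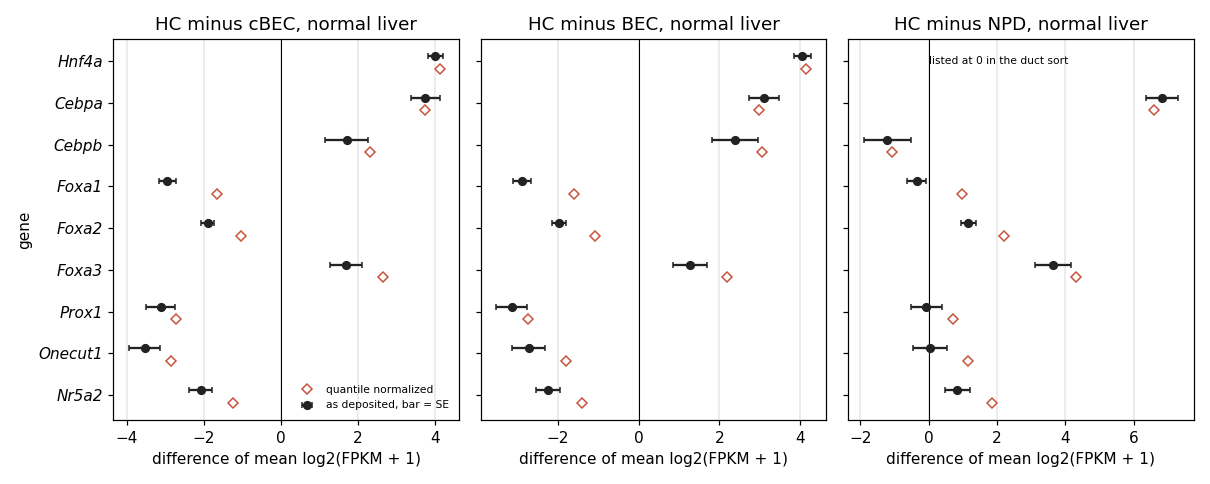
Difference in mean log2(FPKM + 1) between hepatocytes and each duct sort of normal liver, by gene, with values right of 0 higher in HC. Filled points with SE bars are values as deposited and open diamonds are after quantile normalization, and Hnf4a has no point against NPD because both NPD libraries are listed at 0.

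The FOXA paralogues made up different shares of their sum in HC and in ducts. The summed level was 39.3 ± 5.69 FPKM (SD, n = 4) in normal HC, 85.0 ± 20.2 (n = 4) in cBEC, 87.5 ± 5.29 (n = 4) in BEC and 10.4 ± 1.26 (n = 2) in NPD. Foxa3 made up 62.7% ± 7.92 of the sum in HC, from 54.7% to 71.5%, and 8.68% ± 3.77 in cBEC and 11.3% ± 3.76 in BEC. Foxa1 was 9.17% of the sum in HC, 39.2% in cBEC and 36.5% in BEC, and Foxa2 was 28.1%, 52.1% and 52.2%. The ranges of the Foxa3 share in HC and in cBEC and BEC did not overlap. After PH the Foxa3 share of HC was 66.8% ± 7.10 (n = 4), from 61.8% to 77.3%, which overlapped normal HC. In cBEC and BEC it was then 11.1% and 14.4%.

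The Hnf4a rows for the 2 starts overlap over most of the gene, so their ratio is not a measure of the use of each start. The level of the downstream row over the upstream row was 1.0 to 1.01 in the 4 normal HC libraries. It was 0.876 to 0.917 in cBEC and 0.866 to 0.909 in BEC of normal liver, and 0.916 to 0.938 and 0.909 to 0.930 after PH. In PH HC it was 1.002 to 1.005. The ratio was below HC in every cBEC and BEC library. The HC columns also differ from the others in their decimals and sums, so this difference in ratio cannot be told apart from one of processing.

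After PH the comparison of HC with the 3 duct sorts gave the same division of the members. Again 8 of 9 passed, with 83.1% of 14008 genes called. Hnf4a (4.96 ± 0.35), Foxa3 (2.24 ± 0.25) and Cebpa (2.10 ± 0.28) were higher in HC with no overlap, as 14.4% of genes were higher and 10.4% higher with no overlap. Prox1 (-2.48 ± 0.29), Foxa1 (-2.02 ± 0.16), Onecut1 (-1.94 ± 0.22), Nr5a2 (-1.46 ± 0.27) and Foxa2 (-0.84 ± 0.28) were lower, as were 68.7% of genes (SE; limma, adjusted p from 1.07e-06 to 0.0195). Nr5a2 lost its call with upper-quartile scaling (-0.60, adjusted p = 0.0824, over a range of 0.000188 to 0.369 across all alternatives). Foxa2 turned direction after quantile normalization (0.14) and upper-quartile scaling (0.02). Its call was also lost without PH HC replicate 2 (adjusted p = 0.0598) or PH NPD replicate 1 (0.0550), over a range of 0.000920 to 0.964 across all alternatives. Cebpb was 35.3 ± 11.6 FPKM (SD, n = 4) in HC and did not pass (0.69, adjusted p = 0.0740).

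Other genes of the lineage, from lists of textbook genes, were compared in the same way. The first list held 37 other transcription factors, called hepatocyte factors below, though it includes factors of other liver cells such as Gata4. Of these 37, 17 were higher in HC than in the ducts of normal liver, 15 were lower and 5 did not pass (median difference 0.48, against -1.13 over all genes). For this and the lists below, the shares over all genes were 14% higher in HC and 70.4% lower. Creb3l3, a regulator of triglyceride genes, was at 210.8 FPKM in HC and listed at 0 in all 10 duct libraries. Atf5 was at 235 in HC, was listed at 0 in every cBEC and BEC library of normal liver, and stood at 51.1 in NPD. Gata6 and Dbp were lower in HC, by 4.56 ± 0.15 and 4.02 ± 0.57 (SE; limma, adjusted p = 1.62e-12 and 1.81e-05). All 20 textbook target genes of these factors were higher in HC, Alb and Apoa2 among them. Of these 20, 13 were listed at 0 in every duct library, so no median is given. All 10 biliary transcription factors were lower in HC (median -4.15), led by Sox4 at 0.288 against 103 FPKM and Ehf at 0.248 against 79.6. After PH the counts were 13 higher, 14 lower and 9 not passing of 36 tested factors, 20 of 20 targets higher and 10 of 10 biliary factors lower. The shares over all genes were then 14.4% higher in HC and 68.7% lower.

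Among the ducts of normal liver, cBEC and BEC showed no difference that passed for these genes. No member passed between them, as 0% of 12931 genes did, and none of the 9 had an unadjusted p under 0.05 (limma). The largest difference was Onecut1, 96.6 ± 30.9 FPKM (SD, n = 4) in cBEC and 53.5 ± 15.0 (n = 4) in BEC (0.81 ± 0.39 SE, adjusted p = 0.619). Such a p does not show that the sorts were alike.

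NPD differed from both at every member. All 9 passed between cBEC and NPD, where 34.7% of genes did, and all 9 between BEC and NPD, where 37.6% did. In each comparison 8 members were lower in NPD, against 21.8% and 24.3% of genes, and Cebpb was higher in NPD, against 12.9% and 13.3%. Hnf4a was listed at 0 in NPD. The differences of BEC from NPD were 3.72 ± 0.45 for Cebpa, 3.13 ± 0.24 for Foxa2, 3.08 ± 0.38 for Prox1, 3.07 ± 0.20 for Nr5a2, 2.78 ± 0.48 for Onecut1, 2.54 ± 0.26 for Foxa1 and 2.38 ± 0.57 for Foxa3 (SE; limma, adjusted p from 1.02e-06 to 0.00682). Cebpb was 102.6 ± 6.89 FPKM (SD, n = 2) in NPD, against 20.1 ± 24.6 in cBEC and 8.37 ± 4.95 in BEC (n = 4 each). Against cBEC, 8 of 9 members did not overlap NPD (7 higher in cBEC, against 32.7% of genes, and 1 lower, against 17.2%), and against BEC all 9 did not (8 higher, against 36.5%, and 1 lower, against 17.8%). The call for Foxa3 was lost without NPD replicate 2 in both comparisons (adjusted p = 0.223 and 0.0986), and that for Cebpb against cBEC without either NPD library (0.0949 and 0.0841).

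The NPD sort also differed in its markers. Its 7 duct markers summed to 2609 and 3816 FPKM, against at least 9506 in cBEC and 14820 in BEC. Its 6 portal fibroblast and mesothelial markers summed to 5664 and 5177. In such bulk libraries, fewer cells of a type and less RNA per cell cannot be told apart, and the part of these other cells in the NPD values was not tested. Of the 10 biliary transcription factors, 10 were lower in NPD than in cBEC and 9 lower than in BEC, among them Glis3 at 65.6 FPKM in BEC and 6.23 in NPD. Over all genes the shares lower in NPD were 21.8% and 24.3%.

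In hepatocytes 1 member passed between PH and normal liver, Cebpa, which was lower after PH. It measured 301, 144, 149 and 298 FPKM in normal HC and 49.6, 57.4, 109.6 and 93.05 after PH. All PH libraries lay below all normal libraries. The means were 223 ± 88.4 and 77.4 ± 28.6 (SD, n = 4 each), a change of -1.50 ± 0.35 (SE; limma, adjusted p = 0.0347). Of 10029 genes 6.19% passed, 4.41% as lower, and 13.2% were lower with no overlap. The call was close to the threshold: it was lost without normal HC replicates 1 or 4 or PH HC replicates 1, 2 or 4 (adjusted p from 0.0704 to 0.0978), and it passed in 7 of 15 alternatives, in which the change ran from -1.69 to -1.32 and the adjusted p from 0.00123 to 0.0978.

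The HC libraries separated in a way the groups do not explain. Normal replicates 1 and 4 and PH replicates 3 and 4 (side A) stood apart from normal replicates 2 and 3 and PH replicates 1 and 2 (side B), along an axis with 64.4% of the variance within the groups. The labels name no batch for it. Across 9771 genes the difference between the sides had a Spearman rho of 0.697 with the GC content of the transcript and of -0.418 with its length, as a description across genes. In normal HC, Cebpa, with a GC content of 62.6%, had a higher mean on side A, and Prox1 and Nr5a2, at 45.3% and 43.2%, had higher means on side B. Other members went against that order: Cebpb, with the highest GC content at 67.2%, was 43.4 FPKM on side A and 46.5 on side B, and Onecut1, at 49.7%, was 10.5 and 4.75. The part of GC content in these values was not tested.

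Within each side Cebpa was lower after PH. On side A the mean went from 299.8 to 101 FPKM, a change of -1.56, and on side B from 147 to 53.5, a change of -1.44, with 2 libraries in each group. These within-side values are a description, since the sides were read from the same libraries. All PH libraries lay below all normal libraries, so any division of them gives a fall on both sides. The within-side falls therefore add no support to the call. The 6 hepatocyte markers summed to 88958 to 94872 FPKM in normal HC and to 64500 to 95640 after PH, and the duct markers to at most 75.6.

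**Figure D3:**
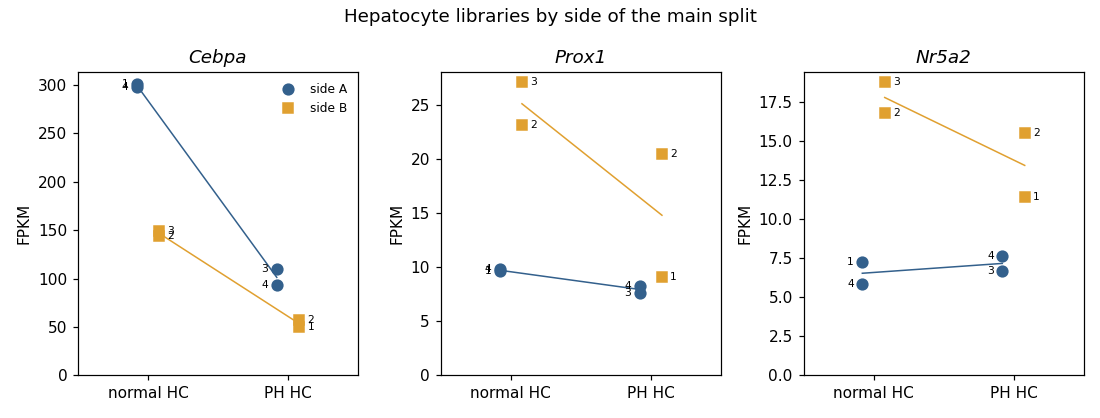
FPKM of Cebpa, Prox1 and Nr5a2 in each hepatocyte library, normal and after partial hepatectomy, numbered by replicate, with circles for side A and squares for side B and lines joining the means of a side. Cebpa is lower after PH on both sides, from 299.8 to 101 and from 147 to 53.5, as any division of these libraries would give. Prox1 and Nr5a2 differ more between the sides than between the treatments.

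The other 8 members did not pass in HC. Hnf4a was 173 ± 15.9 FPKM in normal HC and 191 ± 30.4 after PH (SD, n = 4 each), with overlap (0.13 ± 0.19 SE, adjusted p = 0.747). Cebpb was 44.9 ± 11.9 and 35.3 ± 11.6. The ratio of Cebpb to Cebpa was 0.23 ± 0.12 (SD, n = 4) in normal HC, from 0.12 to 0.39, and 0.47 ± 0.09 (n = 4) after PH, from 0.34 to 0.54, so the ranges overlapped. Both values come from the same libraries as the fall in Cebpa.

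Foxa1 was 3.44 ± 1.02 in normal HC and 4.93 ± 0.949 FPKM after PH, Foxa2 10.9 ± 0.582 and 11.3 ± 5.32, and Foxa3 25.0 ± 6.64 and 33.0 ± 11.1 (SD, n = 4 each). Foxa2 was even in normal HC and spread after PH, with 5.60 and 8.06 on side B and 17.0 and 14.4 on side A. Prox1 was 17.4 ± 9.02 and 11.4 ± 6.08, Onecut1 7.63 ± 3.50 and 8.8 ± 2.30, and Nr5a2 12.2 ± 6.58 and 10.3 ± 4.01. All of these overlapped between normal and PH.

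Around the members in HC, 2 of 36 other hepatocyte transcription factors rose after PH and 6 fell (median -0.35, against -0.07 over all genes). For these and the target genes below, 6.19% of all genes passed in HC, 4.41% as lower. Hhex, a homeobox factor of the early liver bud, rose from 18.9 to 43.0 FPKM (1.13 ± 0.29). Srebf1, the activator of fatty acid synthesis, fell from 80.9 to 15.1 (-2.37 ± 0.21), and Mlxipl, the glucose-responsive activator ChREBP, from 83.1 to 13.9 (-2.29 ± 0.55; SE; limma, adjusted p from 0.000231 to 0.0484). The other riser was Nr1i3, which is named after its values were seen. Of 20 target genes 1 rose and 3 fell (median -0.33). Fgb, a fibrinogen chain, rose from 3934 to 9670, and F7 and Cyp8b1, a clotting factor and a bile acid enzyme, fell from 85.8 to 45.1 and from 231 to 76.8. The third to fall was Ttr, also named after its values were seen. Of the 10 biliary factors, 3 were high enough to test in HC and none passed.

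In the duct sorts no member passed after PH. In cBEC 0.0681% of genes passed, in BEC 1.81% and in NPD 15.2%. At an unadjusted p under 0.05 (limma) there was 1 member in cBEC, 0 in BEC and 1 in NPD. Cebpa in cBEC was 11.4, 17.1, 14.2 and 17.1 FPKM in normal liver and 36.4 and 28.2 after PH, without overlap, as were 6.62% of genes (1.07 ± 0.22 SE, adjusted p = 0.232). Foxa1 was also higher without overlap in cBEC, and in BEC (5.29% of genes), while Foxa2 was lower without overlap in BEC (22% of genes). Cebpb in NPD was 97.7 and 107 in normal liver and 65.2 and 76.9 after PH (-0.53 ± 0.18, adjusted p = 0.105), and 27.6% of genes were lower there without overlap. In NPD Cebpa was 2.46 and 0 before and 6.31 and 2.73 after PH (adjusted p = 0.195), and 36.9% of genes were higher without overlap. Hnf4a in cBEC was 10.2 ± 3.38 (SD, n = 4) and 9.66 ± 0.273 (n = 2), and in BEC 9.54 ± 1.72 (n = 4) and 9.32 ± 0.286 (n = 2).

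Markers of other cells differed in the same duct sorts. In NPD the Kupffer sum went from 171 and 79.4 FPKM to 8.62 and 4.47, the portal fibroblast and mesothelial sum from 5664 and 5177 to 3154 and 3602, and the duct sum from 3816 and 2609 to 4727 and 3958. In BEC the sinusoidal sum was 71.4 to 291 in normal liver and 0.536 and 3.87 after PH, and the Kupffer sum 53.4 to 231 and then 0.183 and 3.28. In cBEC the portal fibroblast and mesothelial sum was 144 to 503 and then 64.8 and 58.2, and the Kupffer sum 0.338 to 57.3 and then 0 and 0. Their part in the duct values, and in the comparison of responses that uses them, was not tested.

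Of the textbook target genes, 2 were high enough to test in cBEC and in BEC after PH, and 1 rose in each. That was Trf, transferrin, which normal liver gave as 0 in each of these libraries and which stood at 313 ± 222 and 279 ± 172 FPKM (SD, n = 2 each) after PH (limma, adjusted p = 0.000212 and 9.44e-06). No other hepatocyte or biliary factor passed there. Trf was also listed at 0 in normal EC and LSEC and stood at 50.1 and 11.5 FPKM after PH (limma, adjusted p = 0.0495 and 0.00123). It rose in the blood sort from 63.0 to 340 (limma, adjusted p = 0.00271), and in normal NPD it was at 396. Transcripts abundant in hepatocytes were often listed at exactly 0 outside HC, and the part of such zeros in these rises was not tested. In NPD 3 of 32 other hepatocyte factors rose and 6 fell, where 15.2% of all genes passed (median -0.09, against 0.09 over all genes). Nfil3, a repressor of the circadian output, rose from 4.14 to 26.5 FPKM, and Srebf1 from 17.0 to 42.1, while Klf15 fell from 22.4 to 4.52 and Hlf from 20.9 to 4.53 (limma, adjusted p from 0.0158 to 0.0352).

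Cebpa fell in hepatocytes, while its mean in each duct sort was above that of normal liver without passing the test, and the difference between the responses was itself tested. Over all 20 groups in a single fit, the response of HC minus the mean response of the 3 duct sorts was -2.46 ± 0.40 for Cebpa (SE; limma, adjusted p = 3.08e-05), and it passed in each of 30 alternatives, from -3.02 to -2.02. Of 16527 genes 8.17% passed, 4.73% as lower. None of the other 8 members passed, with differences from -0.37 for Prox1 to 0.12 for Onecut1. The difference between HC and ducts for Cebpa was 4.56 in normal liver and 2.10 after PH.

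The response also varied over all 10 populations for some members. In an F test of the 9 interaction terms, 4 members passed, Cebpa (adjusted p = 3.87e-12), Nr5a2 (2.18e-06), Cebpb (0.000137) and Prox1 (0.00351; limma). That is 4 of 9, near the 47.8% of all genes that passed.

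**Figure D4:**
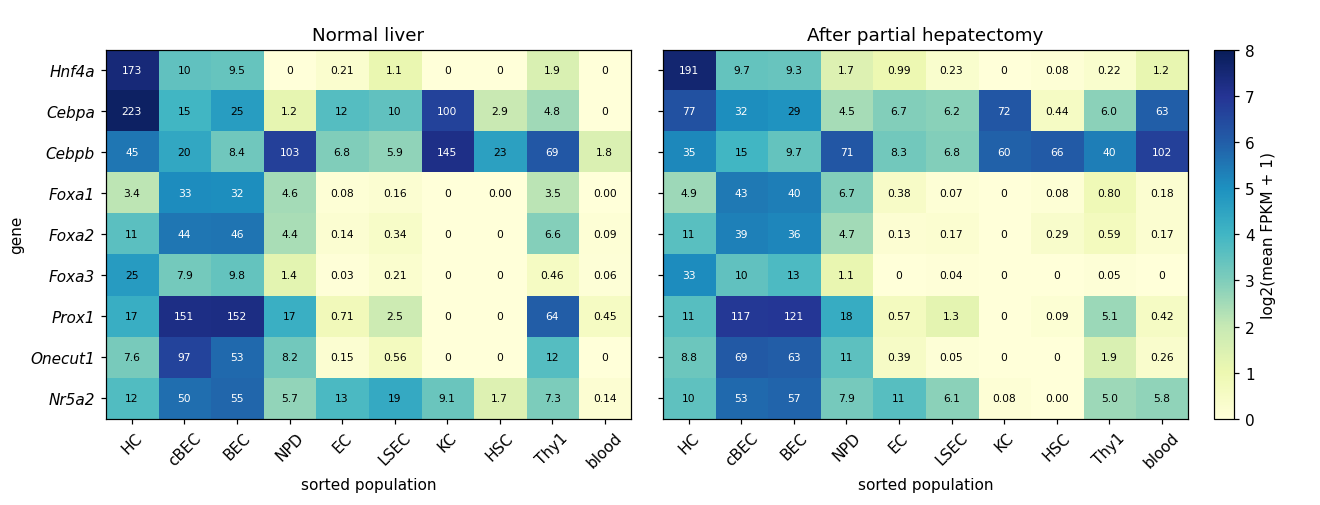
Mean FPKM of each member, printed in the cells and coloured by log2(mean FPKM + 1), in the 10 sorted populations of normal liver (left) and after partial hepatectomy (right). Hnf4a and Foxa3 are highest in HC, Foxa1, Foxa2, Prox1 and Onecut1 in cBEC and BEC, and Cebpa, Cebpb and Nr5a2 also appear in macrophages, endothelium or stellate cells.

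Outside hepatocytes and ducts the members were of unequal level. Hnf4a, Foxa1, Foxa2, Foxa3 and Onecut1 had group means below 1.2 FPKM in EC, LSEC, KC and HSC of both treatments, and all 5 were listed at 0 in every KC library. Prox1, which also marks lymphatic endothelium, was 2.52 ± 1.69 (SD, n = 3) in normal LSEC, 0.713 in EC and 0 in KC. Cebpa, Cebpb and Nr5a2 were above 5 FPKM on average in normal EC, LSEC and KC.

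In the order of the levels, HC led for Hnf4a, Cebpa and Foxa3 in both treatments. In normal liver HC did not overlap the next population for any of the 3, which was cBEC for Hnf4a, KC for Cebpa and BEC for Foxa3. After PH, Cebpa in HC overlapped KC, at 71.6 ± 14.8 (SD, n = 3), and KC overlapped blood, at 62.7 ± 17.7 (n = 2). BEC or cBEC led for Foxa1, Foxa2, Prox1, Onecut1 and Nr5a2 in both treatments. They overlapped each other for all 5 in normal liver. For Prox1 in normal liver, cBEC also overlapped Thy1 cells. Cebpb was led by KC in normal liver, overlapping NPD and Thy1 cells, and by blood after PH.

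Nr5a2 fell in Kupffer cells. It was 7.89 and 10.2 FPKM in normal KC and 0.0899, 0.142 and 0 after PH. No PH library came near the normal ones. The change was -3.21 ± 0.20 (SE; limma, adjusted p = 0.00135), among 36.8% of 11835 genes called and 20.1% called lower, and 34.7% of genes were lower without overlap. Only 3 members were high enough to test in KC. Cebpa, an early myeloid factor, was 88.2 and 111 in normal KC and 69.8, 57.7 and 87.3 after PH (adjusted p = 0.127), and Cebpb was 101 and 188, then 51.6, 26.5 and 102 (adjusted p = 0.118). Both passed without PH KC replicate 3, a library with no cell type tag in its labels.

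Markers of other cells moved with this result. The 5 sinusoidal endothelial markers summed to 3014 and 4187 FPKM in normal KC and to 261 to 460 after PH, and the 5 endothelial markers to 1084 and 1356 and then 282 to 502. The 5 Kupffer markers summed to 11711 and 10432 in normal KC and to 26266 to 27539 after PH. Normal LSEC held Nr5a2 at 19.3 FPKM. The part of endothelial RNA in the Nr5a2 values of KC was not tested. Among other list genes, Gata4, an endothelial and stellate factor of the liver, fell from 59.4 to 5.04 and Nr2f2 from 29.4 to 3.0, while Nr1h3 (LXR alpha) rose from 248 to 642 and Xbp1 from 69.0 to 130.0 (adjusted p from 0.00182 to 0.00341). In all, 3 of 20 factors rose and 10 fell (median -0.61), where 36.8% of all genes passed, 20.1% as lower.

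In sinusoidal endothelium Nr5a2 was 22.5, 23.6 and 11.7 FPKM in normal LSEC and 7.08, 2.05, 10.0, 2.67 and 8.87 after PH. The groups did not overlap, as 10.5% of genes did not in that direction. The change of -1.63 ± 0.45 missed the threshold (SE; limma, adjusted p = 0.0541), with 8.46% of genes called. No member passed in LSEC, and 2 had an unadjusted p under 0.05, Nr5a2 and Cebpa, at 10.3 ± 4.32 (SD, n = 3) and 6.22 ± 0.592 (n = 5). The Nr5a2 call was gained without PH LSEC replicate 3. The sinusoidal markers of the same libraries summed to 7206, 8956 and 4461 in normal LSEC and to 2263, 1695, 4969, 1313 and 2912 after PH, and their part in the Nr5a2 values was not tested. In EC, Nr5a2 was 13.1 ± 2.57 (n = 2) and 11.4 ± 1.53 (n = 3), and Cebpa was 12.3 and 11.05 before and 6.31, 8.28 and 5.55 after PH (adjusted p = 0.365), without overlap, as were 12.9% of genes. In EC 0.0249% of genes passed and no member did, with 1 at an unadjusted p under 0.05, Cebpa.

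Both C/EBP genes and Nr5a2 rose in the blood sort. Cebpa was listed at 0 in both normal blood libraries and at 50.2 and 75.3 FPKM after PH. Cebpb rose from 0.589 and 3.03 to 91.4 and 113, by 5.34 ± 0.47, and Nr5a2 from 0.147 and 0.127 to 7.0 and 4.64, by 2.56 ± 0.24 (SE; limma, adjusted p = 0.000766 for Cebpa, 0.00146 for Cebpb and 0.00157 for Nr5a2). These were the 3 members tested, among 64% of 12819 genes called and 24.3% called higher, with 33.2% of genes higher without overlap. The Nr5a2 call was lost without either normal library (adjusted p = 0.0542 and 0.0514).

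The marker sums of the blood sort moved as well. Kupffer markers went from 401 and 677 FPKM to 9030 and 15843, sinusoidal markers from 672 and 774 to 5160 and 2255, and leukocyte markers from 6920 and 6382 to 3610 and 3438. The part of liver macrophages and endothelium in these 3 rises was not tested. Nr1h3, from 9.81 to 290.3, and Rxra, from 2.86 to 142, were among the list genes that rose, 18 of 27 factors, while 7 fell (median 1.65, against -0.31 over all genes). Here 64% of all genes passed, 24.3% as higher.

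In stellate cells Cebpb was 17.3 and 28.4 FPKM in normal HSC and 43.6, 104 and 50.3 after PH, without overlap, as were 14.7% of genes (1.42 ± 0.44 SE; limma, adjusted p = 0.462). Cebpa was 2.65 and 3.11, then 0.367, 0 and 0.939 (adjusted p = 0.594), and 11.7% of genes were lower without overlap. The Kupffer markers summed to 51.3 and 714 in normal HSC and to 38.6, 0.515 and 42.3 after PH, the sinusoidal markers to 155 and 921 and then 65.6, 13.8 and 40.7, and the leukocyte markers to 17.95 and 322 and then 19.0, 0.377 and 9.03. Their part in the Cebpa values was not tested. No member passed in HSC, where 0.00853% of genes did, and 1 had an unadjusted p under 0.05, Cebpb.

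Thy1 cells held the duct members unevenly. Prox1 was 87.9 and 40.4 FPKM in normal Thy1 cells and 6.93 and 3.21 after PH (-3.39 ± 0.49 SE; limma, adjusted p = 0.13). Foxa2 was 0.977 and 12.2, then 0.650 and 0.533, and Onecut1 3.10 and 20.5, then 2.17 and 1.60. Of the 5 members tested, Prox1 and Onecut1 were lower after PH without overlap, as were 28.7% of genes. No member passed, with 0.00747% of genes called, and 1 had an unadjusted p under 0.05, Prox1. In simulated data the Thy1 comparison recovered 0 of 200 genes with a log2 change of 2, so members that did not pass may still have changed. Duct markers summed to 869 and 5142 in normal Thy1 cells and 1342 and 855.5 after PH. Foxa1, Foxa2 and Onecut1 were highest in the normal library with the higher duct sum, and Prox1 in the other. The portal fibroblast and mesothelial markers summed to 3739 and 3040 and then 1825 and 896.7, in the same order over the 4 libraries as Prox1. The part of duct and portal cells in these values was not tested.

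**Figure D5:**
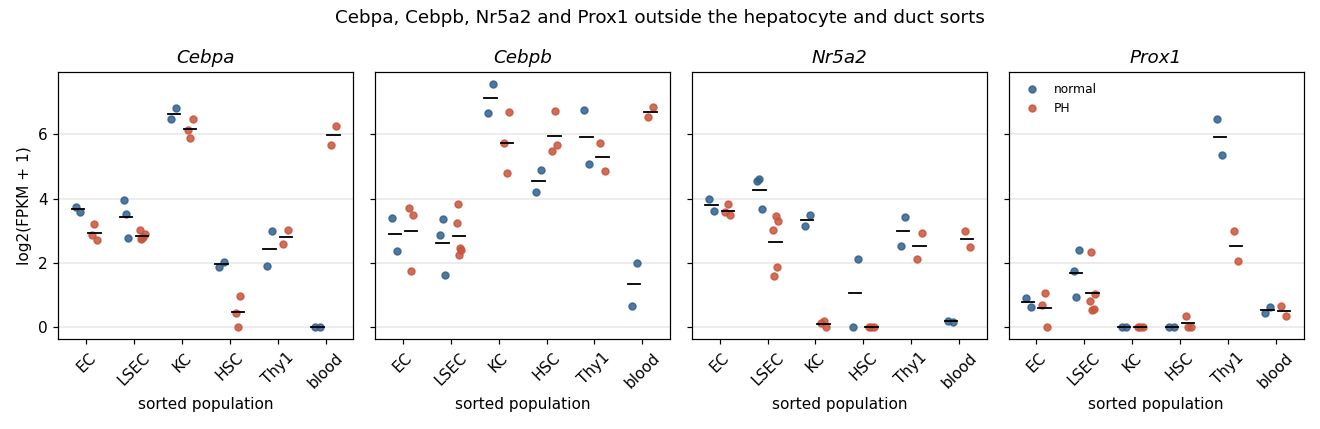
Level of Cebpa, Cebpb, Nr5a2 and Prox1 as log2(FPKM + 1) in the 6 populations other than hepatocytes and ducts, 1 point per library, blue for normal liver and red after partial hepatectomy, with a bar at the mean. Nr5a2 falls in KC, Cebpa, Cebpb and Nr5a2 rise in blood, and Prox1 is lower after PH in both Thy1 libraries.

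Genes with profiles most like the members over the 20 group means were sought among 11761 symbols whose mean reached 10 FPKM in some group. These are descriptions over means that share their libraries. Hnf4a was closest to Cyp2j5 (Pearson r of 0.982) and Foxa3 to Pcbd1 (0.988), which encodes the dimerization cofactor of HNF1. Onecut1 was closest to its paralogue Onecut2 (0.997), Foxa1 to Sall1 (0.997), Foxa2 to Mgam (0.996) and Prox1 to Plekhb1 (0.986). Nr5a2 was closest to Cadps2 (0.922). Cebpa and Cebpb had the loosest matches, Rsc1a1 at 0.872 and Lrp1 at 0.867. Between members, r was 0.991 for Foxa1 with Onecut1, 0.980 for Foxa1 with Foxa2, 0.941 for Hnf4a with Foxa3, and 0.246 for Cebpa with Cebpb.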

How the data were processed

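RNA of 55 libraries from 10 sorted populations of normal liver and liver after PH was measured. The authors deposited 1 table of 36141 transcript rows with a column per replicate; its values are FPKM by the name the authors gave it. CASAVA 1.8.2, Bowtie 1.0.0 and the build mm9 are named in the submitters' processing notes; the counting tool is not given in the sources used here. FPKM do not keep the read depth, so no counting error is given.

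One row per symbol, that of highest mean, was kept (24478 symbols). The scale for all fits was log2(FPKM + 1), which understates changes of low genes. The tool was limma 3.58.1 (R 4.3.3), with trended, robust variances. Tests were two-sided, with Benjamini-Hochberg adjustment over all genes tested and a threshold of 0.05. A gene was tested with 1 FPKM or more in a number of its libraries no lower than the size of the smaller group. The duct sorts entered with equal weight. Differences are of means of log2 values, and errors marked SE are the fit's.

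Groups follow the sample titles. The members and lists were chosen with earlier results of these data known. All members are described everywhere, with changes and errors for those past the threshold and for those named as missing it. From each list up to 2 rises and 2 falls past the threshold with no overlap of libraries are named. The alternatives were a pseudocount of 0.1, no filter, quantile and upper-quartile scaling, the sum of a symbol's rows, all groups in 1 fit, a replicate block, and leaving out each library. Each duct sort alone was chosen after seeing the data. A term for a split of the HC libraries was fitted too but is not reported, because the split was read from the same libraries. The procedure was also tested on simulated data in which 200 genes carried a log2 change of 2. All other genes had no change, and the noise was independent between genes and libraries. For HC against ducts in normal liver 193 were recovered, with 9 false calls (14702 genes). For HC after PH 172 were recovered, with 12 false calls (10029 genes), for HSC 27 (11729 genes) and for Thy1 cells 0 (13389 genes). The data differ from this setting. In them 84.4% of genes were called for HC against ducts, and the HC libraries shared an axis of variation. Recovery in the data may therefore differ. Transcript GC content and length are from GENCODE, on a build other than mm9. Plots used matplotlib 3.10.9 under Python 3.11.15.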

Additional observations from a re-analysis of the deposited data

Results flagged for a closer look

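In 7 of the 45 combinations of a member and a group of 4 or 5 libraries, 1 library stood far from the rest. The measure was its gap to the next library over the range of the group. About 1 in 20 (2.25 of 45) would be expected of independent values. Normal cBEC replicate 1 and PH LSEC replicate 2 recur among the 7, and some of the values lay near 0 FPKM. The count is thus a description, not a test of an excess. In normal cBEC, replicate 1 had Cebpb at 56.8 FPKM, with the others from 4.80 to 10.6, and Prox1 at 81.5, with the others from 164 to 179.9. Its portal fibroblast and mesothelial markers summed to 503 FPKM, with the others from 144 to 178, its duct markers to 9506, with the others from 15972 to 19933, and its endothelial markers to 97.0, with the others from 3.27 to 31.7; the part of these in its values was not tested. In normal BEC, replicate 2 had Foxa1 at 19.9, with the others from 34.8 to 37.7. In PH HC, replicate 2 had Prox1 at 20.4, with the others from 7.64 to 9.13. In PH LSEC, replicate 2 had Foxa3 at 0.134, with the others at 0.0307 or below, and Prox1 at 4.04, with the others from 0.437 to 1.03, and replicate 5 had Onecut1 at 0.217, with the others at 0.0464 or below.

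The response of Cebpa to PH differed between HC and the duct sorts by -2.46 on the log2 scale (SE 0.40; limma, adjusted p = 3.08e-05). In the F test of 9 interaction terms, the responses differed between populations for Cebpa (adjusted p = 3.87e-12), Nr5a2 (2.18e-06), Cebpb (0.000137) and Prox1 (0.00351).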

How the results depend on the processing

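For changes of single members past the threshold, 641 values under alternatives kept their direction and call, 27 kept the direction but lost the call and 8 turned. Against NPD alone, the number of members that passed between HC and ducts was 4 in normal liver and 4 after PH, with Foxa2 (1.16 and 1.01), Nr5a2 (0.84 and 0.37) and, in normal liver, Onecut1 (0.056) turned. Foxa2 also turned with quantile normalization (0.034 in normal liver, 0.14 after PH) and with upper-quartile scaling after PH (0.016). For PH against normal in HC, 0 members passed with no filter, 0 with upper-quartile scaling and 0 with a replicate block, where Cebpa had an adjusted p of 0.0803, 0.0573 and 0.0787. With all groups in 1 fit, 1 member passed in NPD (Cebpa), 1 in LSEC (Nr5a2), 1 in HSC (Cebpa) and 4 in Thy1 cells (Foxa1, Foxa2, Prox1 and Onecut1). Leaving out each library in turn, the number passing ran from 0 to 1 in NPD, 0 to 1 in HC, 0 to 1 in LSEC and 1 to 3 in KC; where it left 1 library in a group, that library was assumed to vary like the others. The cause of these changes was not tested. The order of populations by level was the same with rows summed, except for the low ranks of Hnf4a after PH.

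With the replicate number as a block, 1 member passed in NPD (Cebpa), 2 in KC (Cebpa and Nr5a2) and 1 in Thy1 cells (Prox1), and Foxa3 lost its call between cBEC and NPD (adjusted p = 0.108) and between BEC and NPD (0.0542). Same-numbered HC libraries deviated from their group means with correlations of -0.32, 0.57, -0.67 and 0.44, and LSEC libraries with -0.02, -0.24 and -0.11, so the numbers were not taken as pairs.

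The share of all genes called ranged over the alternatives from 2.57% to 7.62% in HC, from 12% to 58.4% in KC, from 9.49% to 65.3% in blood, from 0% to 32.4% in NPD, from 0.0261% to 11.4% in LSEC, from 0.164% to 7.99% in BEC, from 0.028% to 3.12% in cBEC, from 0% to 1.24% in EC, from 0% to 1.54% for cBEC against BEC, from 20.7% to 41.3% for cBEC and 23.5% to 38.1% for BEC against NPD, from 0% to 11.9% in HSC and from 0% to 11.4% in Thy1 cells. It stayed between 67.4% and 85.9% for HC against ducts in normal liver. The unknown depth and the values listed at 0 limit what can be said of members under 1 FPKM.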
